A study of Mus musculus with 6 samples.

Results

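Histone and DNA demethylases that consume molecular oxygen were described here through the messenger RNA of 10 genes: Kdm2b, Kdm3a, Kdm4a, Kdm4b, Kdm4c, Kdm5b, Kdm6a, Kdm6b, Tet2 and Tet3. The genes were given by name and matched by symbol to 1 Ensembl gene ID each, out of 21769 IDs present in all 6 libraries. All 10 passed the filter on low values (1 FPKM or more when averaged across the 6 libraries, where FPKM is fragments scaled by transcript length and by library depth), as did 10976 genes in all. The libraries were made from wild-type 3T3-L1 cells, mouse fibroblasts of an established line able to become adipocytes, with 3 libraries from cells under chronic intermittent hypoxia (CIH), in which oxygen drops again and again, and 3 control libraries. Both groups went through the same induction with insulin and were kept in medium with 0.1 µM insulin up to day 8. The sources used here do not give oxygen levels, cycle length or the interval from the last cycle to harvest. Since the labels name no separate cultures, the p-values reflect only how far these libraries scatter, and that scatter may be technical.

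CIH 1, CIH 2, control 1 and control 2 were deposited as gene tables, and CIH 3 and control 3 as tables with several entries per gene ID, which were summed. Levels are not comparable between these kinds of table, so CIH 1 and 2 were set against control 1 and 2, and CIH 3 against control 3. Of the adipocyte markers examined, all but Lep, at no more than 0.217 FPKM in any library, were well expressed in the gene tables, at a summed 6450 and 5669 FPKM in CIH 1 and 2 and 6998 and 7680 FPKM in control 1 and 2. In the replicate 3 pair that sum was 513 FPKM in CIH 3 and 26560 FPKM in control 3, and the summed preadipocyte and fibroblast markers were 3106 FPKM in CIH 3 and 432 FPKM in control 3. CIH 3 therefore had low levels of the markers that define its labelled cell type. The macrophage markers summed to between 1.45 and 4.95 FPKM over the 6 libraries, with Adgre1 at 0 in each, and the endothelial markers to between 0.168 and 1.02 FPKM.

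Jumonji-type histone demethylases and the TET enzymes are dioxygenases. They use oxygen, ferrous iron and 2-oxoglutarate to hydroxylate a methyl group, which histones then lose as formaldehyde, while TET enzymes leave 5-methylcytosine as 5-hydroxymethylcytosine and further oxidised forms. Their activity can fall when oxygen runs short, and KDM6A is known to be sensitive to oxygen. Transcription of several of their genes, KDM3A, KDM4B and KDM4C among them, is known from human cell lines to be raised in sustained hypoxia through hypoxia-inducible factor (HIF). In mice, loss of Kdm3a leads to obesity, and in adipocytes such enzymes act on the genes of differentiation and fuel use.

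The HIF-binding core was searched for in the 250 bases before each gene's RefSeq start, because Kdm3a is a known HIF target. The letters sought were ACGTG and GCGTG on either strand, so that the sequence CACGTG, an E-box, counts on both. RefSeq (GRCm38.p6) gave start windows for 8 of the 10 genes, and the window nearest the annotated 5′ end held the core in 5 of them. Over all 32851 windows of that length, 38.6% held it. The core contains the letters CG, and these 8 windows were mostly richer in CG than others. They held CG 12 to 51 times, apart from 0 for Kdm4c, against a median of 6 over all windows. The 2 shares are therefore not like for like. Shown 5′ to 3′ on the gene's strand, with the matching letters in capitals, the stretches around each match let the sites be compared with the expression values that follow:
Kdm3a, chr6:71632928-71632956, minus strand: ccgggaggctgtGCGTGtcttgtgagaga
Tet2, chr3:133544390-133544418, minus strand: tcgcatgccagtCACGTccgccccctcgg
Kdm6a, chrX:18162404-18162432, plus strand: tactccggacagACGTGcctatcagccaa
Kdm6a, chrX:18162536-18162565, plus strand: gtcaacaaaggtCACGTGaggcgaggggct
Kdm5b, chr1:134559937-134559965, plus strand: ccaaaatatatgACGTGattgatggattg
Kdm5b, chr1:134560147-134560175, plus strand: cggaggagcactGCGTGgggtagcggcaa
Kdm2b, chr5:122989313-122989341, minus strand: gcggcggcgcctGCGTGcagaggcgcact
Counted from the RefSeq start, the match begins 27 bases upstream for Kdm3a (start at 71632917), 16 for Tet2 (133544390) and 230 for Kdm2b (122989099). These 3 RefSeq starts lie inside the gene as GENCODE draws it, whose positions are given with the values, and by GENCODE the matches are 46, 733 and 494 bases within the gene. For Kdm5b (229 and 19 bases upstream) and Kdm6a (159 and 27 bases) the matches lie before the start in both annotations. The nearest windows of Kdm4a, Kdm4c and Tet3 held no match, although 1 of the 2 windows of Kdm4c did. Kdm3a held the core in 1 of its 3 windows, so its match depends on the start used, and Kdm2b in all 4 of its windows.

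In replicates 1 and 2, all 10 genes were lower in CIH, and in each of them both CIH libraries lay below both controls, which held for 38.9% of the 10976 genes tested. By limma on log2(FPKM + 1), with Benjamini-Hochberg adjustment over all these genes, 8 of the 10 fell and 0 rose at an adjusted p under 0.05. The test called 20.9% of all genes as lower and 18.2% as higher, or 39.1% in either direction, and the median log2 change was −0.40 for the 10 genes and −0.01 for all genes. The 10 genes were chosen with earlier results of these data known, so these counts describe them and are no independent test. In bulk libraries fewer cells of a type and less RNA per cell cannot be told apart. Summed over the 10 genes, FPKM came to 68.1 in CIH 1 and 74.9 in CIH 2, against 111.9 in control 1 and 113.2 in control 2.

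**Figure D1:**
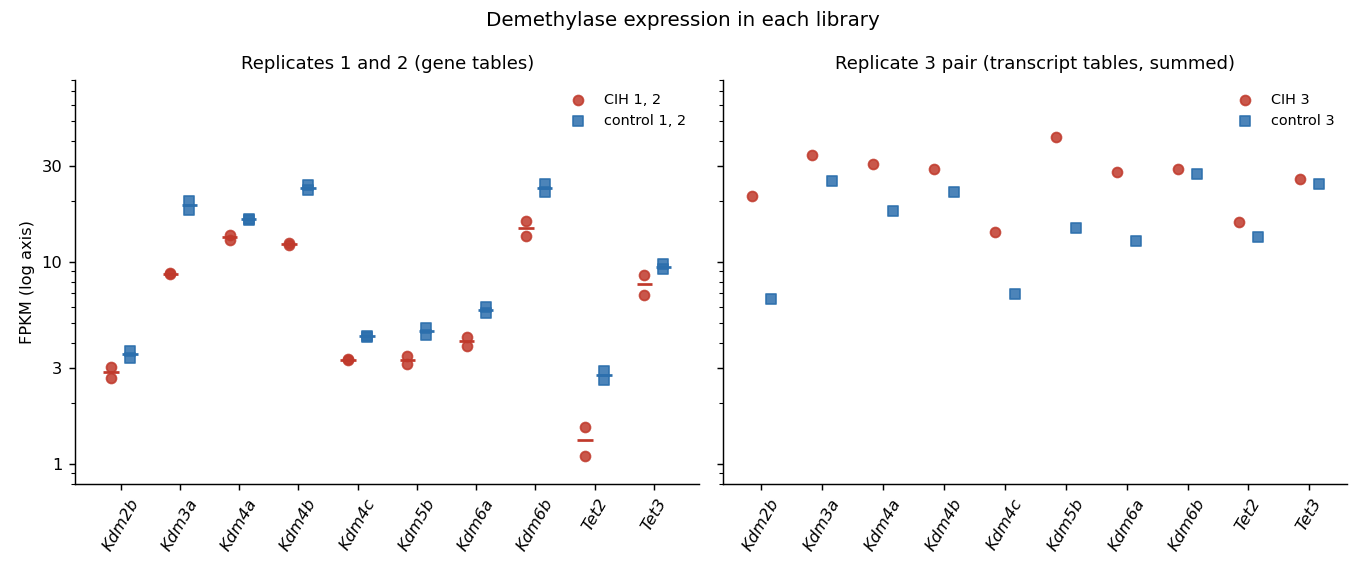
FPKM of each demethylase gene (log axis) in CIH (red circles) and control (blue squares), with replicates 1 and 2 on the left (bars are means of 2 libraries) and the replicate 3 pair on the right. Both CIH libraries lie below both controls for all 10 genes on the left, and CIH 3 lies above control 3 for all 10 on the right.

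Kdm3a and Kdm4b, erasers of methyl groups on lysine 9 of histone H3, had the most negative changes of log2(FPKM + 1) among the 10 genes. Without the added 1, Tet2 fell further than Kdm4b. Mean FPKM in control 1 and 2 and in CIH 1 and 2 was 2.76 and 1.31 for Tet2 and 23.4 and 12.3 for Kdm4b. Kdm3a (ENSMUSG00000053470, chromosome 6, 71588972 to 71632990, minus strand, GRCm38), which removes mono- and dimethyl marks there, had 8.69 and 8.81 FPKM in CIH 1 and 2 and 20.2 and 18.2 FPKM in control 1 and 2. The CIH libraries lay close together and far below both controls. Kdm3a fell 2.07-fold (log2 change −1.05, SE 0.081, n = 2 per group; limma adjusted p = 0.00177), and only 2.3% of all tested genes had a more negative change. This fold and those below are of FPKM + 1. They are smaller than the ratios of the FPKM values printed beside them, most of all for genes at low levels.

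The KDM4 enzymes act on trimethylated lysines 9 and 36 of histone H3. Kdm4b (chromosome 17, 56326062 to 56402870) had 12.1 and 12.4 FPKM in CIH 1 and 2 and 22.7 and 24.1 FPKM in control 1 and 2, a 1.84-fold fall (log2 change −0.88, SE 0.070; limma adjusted p = 0.00188). Its relatives moved less. Kdm4a (chromosome 4, 118136957 to 118180043) had 12.9 and 13.6 FPKM in CIH and 16.2 and 16.4 FPKM in control, a 1.21-fold fall (log2 change −0.28, SE 0.069; limma adjusted p = 0.0319). Kdm4c, on the same chromosome (74242497 to 74405860), had 3.31 and 3.26 FPKM in CIH and 4.26 and 4.32 FPKM in control, a 1.23-fold fall (log2 change −0.30, SE 0.074; limma adjusted p = 0.0310). Kdm4b was thus above Kdm4a in both controls (1.40 and 1.47 times its FPKM) and below it in both CIH libraries (0.938 and 0.912 times). With entries summed, Kdm4b was 0.952 times Kdm4a in CIH 3 and 1.23 times in control 3, but by largest entry it was below Kdm4a in both, at 14.2 against 23.6 FPKM in CIH 3 and 11.8 against 15.5 FPKM in control 3. A ratio within a library does not depend on how the library is scaled.

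KDM6A and KDM6B remove methyl groups from lysine 27 of histone H3, the mark of Polycomb silencing. Kdm6b (chromosome 11, 69398508 to 69413675), also known as an inflammation-induced gene, had 13.5 and 15.9 FPKM in CIH 1 and 2 and 22.3 and 24.3 FPKM in control 1 and 2. It fell 1.55-fold (log2 change −0.63, SE 0.104; limma adjusted p = 0.0106). Kdm6a (chromosome X, 18162575 to 18279936), which works within the KMT2C and KMT2D complexes, had 3.83 and 4.27 FPKM in CIH and 6.02 and 5.604 FPKM in control. It fell 1.35-fold (log2 change −0.43, SE 0.090; limma adjusted p = 0.0202). Of the exonic bases of Kdm6b, 4.1% overlap an antisense gene.

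KDM5B takes methyl groups off lysine 4 of histone H3, a mark of active promoters, and KDM2B brings a Polycomb complex to unmethylated CpG islands besides acting on lysine 36. Kdm5b (chromosome 1, 134560171 to 134635285) had 3.14 and 3.43 FPKM in CIH 1 and 2 and 4.72 and 4.38 FPKM in control 1 and 2, a 1.30-fold fall (log2 change −0.37, SE 0.085; limma adjusted p = 0.0257). Kdm2b (chromosome 5, 122870665 to 122989823) had 2.66 and 3.03 FPKM in CIH and 3.35 and 3.65 FPKM in control and was not called (log2 change −0.23, SE 0.089; limma adjusted p = 0.101). Of the exonic bases of Kdm2b, 5.8% overlap Rnf34 on the opposite strand, and the sources used here do not say whether the authors counted by strand.

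Of the DNA demethylases, Tet2 had the lowest FPKM of the 10 genes in the gene tables. Tet2 (chromosome 3, 133463679 to 133545139) had 1.099 and 1.525 FPKM in CIH 1 and 2 and 2.90 and 2.61 FPKM in control 1 and 2, a fall of 1.63-fold on the log2(FPKM + 1) scale, which understates changes this low (log2 change −0.71, SE 0.111; limma adjusted p = 0.00951). Steps in the deposited values put about 484 and 705 fragments behind Tet2 in CIH 1 and 2, and about 1259 and 1233 in control 1 and 2. Tet3 (chromosome 6, 83362373 to 83459084) had 6.91 and 8.60 FPKM in CIH and 9.25 and 9.75 FPKM in control and was not called (log2 change −0.27, SE 0.116; limma adjusted p = 0.126). Tet1 was at or below 0.0809 FPKM in these 4 libraries.

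**Figure D2:**
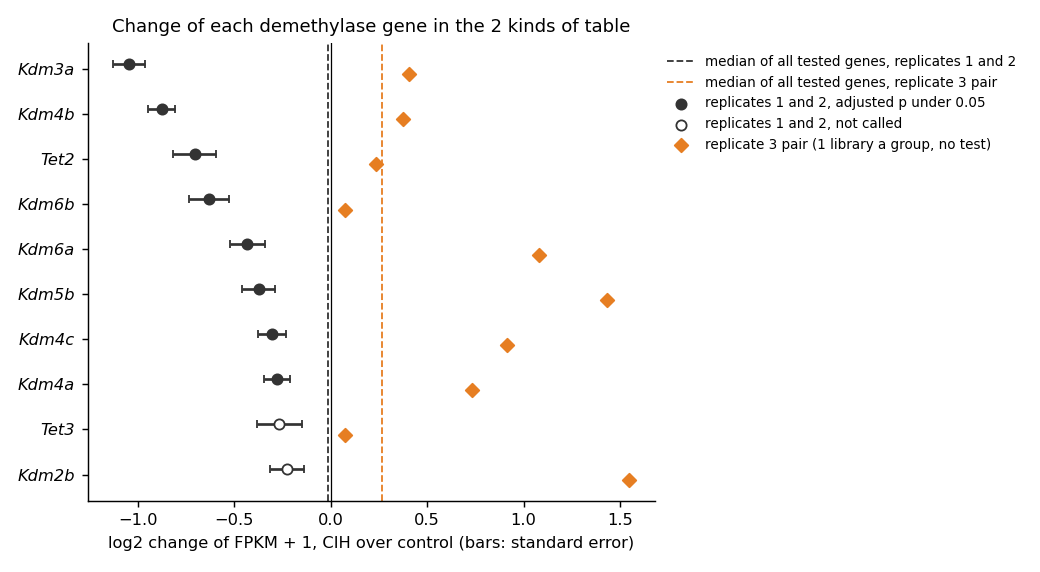
Log2 change of FPKM + 1, CIH over control, for each demethylase gene in replicates 1 and 2 (circles with standard errors, filled where limma's adjusted p was under 0.05) and in the replicate 3 pair (diamonds, 1 library a group and no test), with dashed lines at the medians of all tested genes. All 10 circles lie left of 0 and all 10 diamonds right of it. Kdm3a has the most negative circle and Kdm2b the highest diamond.

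Kdm3a, Kdm4b, Kdm6b and Tet2 were called lower in the planned test and in each of 13 other fits of these 4 libraries, with a largest adjusted p of 0.0172, 0.0184, 0.0478 and 0.0414. The other 4 calls were lost in some fits with 1 library left out. Such fits hold 1 library in 1 of the groups and called fewer of all genes too. The log2 change of Kdm4a was −0.245 to −0.313 in them, against −0.279 in the planned test. Kdm4a and Kdm4c lost their calls when any 1 of the 4 libraries was left out. Kdm5b and Kdm6a lost theirs without CIH 1 (limma adjusted p = 0.139 and 0.115), without CIH 2 (0.0761 and 0.0585) or without control 1 (0.0836 and 0.0641), but not without control 2 (0.0417 and 0.034).

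Ordered by mean FPKM, which is per length and can be compared between genes of 1 library, the control 1 and 2 levels ran from Kdm4b (23.4) and Kdm6b (23.3), whose libraries overlapped, through Kdm3a (19.2), Kdm4a (16.3), Tet3 (9.50), Kdm6a (5.81), Kdm5b (4.55), Kdm4c (4.29) and Kdm2b (3.499) to Tet2 (2.76). In CIH 1 and 2 the order was Kdm6b (14.7), Kdm4a (13.3), Kdm4b (12.3), Kdm3a (8.75), Tet3 (7.76), Kdm6a (4.05), Kdm4c (3.28), Kdm5b (3.28), Kdm2b (2.85) and Tet2 (1.31). Kdm6b and Kdm4a overlapped there, as did Kdm4c and Kdm5b, so neither pair has an order beyond its spread. As shares of the summed FPKM of the 10 genes, Kdm3a took 12.8% and 11.8% in CIH 1 and 2 and 18.0% and 16.1% in control 1 and 2, while Kdm4a took 19.0% and 18.2% in CIH and 14.5% in both controls.

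**Figure D3:**
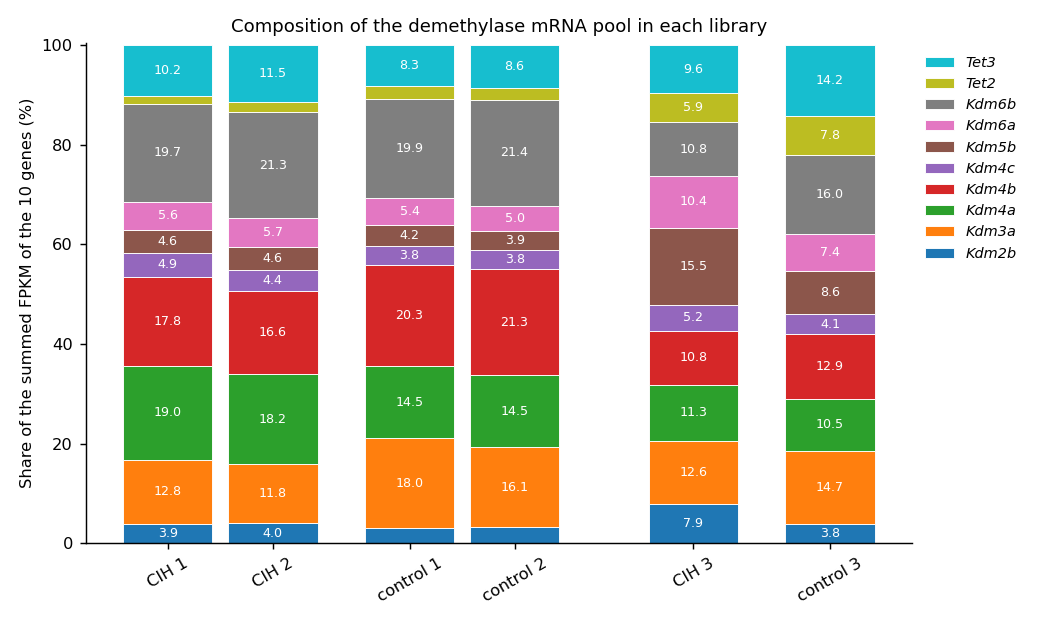
Share of the summed FPKM of the 10 demethylase genes taken by each gene (%), as stacked bars for each library, with the gene tables on the left and the replicate 3 pair on the right. Kdm3a and Kdm4b take smaller shares in CIH than in control within both kinds of table, and Kdm5b and Kdm2b larger ones.

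In the replicate 3 pair, all 10 genes were higher in CIH 3 than in control 3, as were 61.9% of all tested genes. The pair has 1 library per group, so no test was possible. The median log2 change was 0.57 for the 10 genes and 0.26 for all genes, and 7 of the 10 lay above the median of all genes. That median of all genes moved to −0.13 when libraries were scaled by the median of ratios, 0.11 by the upper quartile and 0.84 by total FPKM, so changes in this pair are read relative to it, and 7 of the 10 lay above it under each of these scalings. By log2(FPKM + 1) without further scaling, 3 genes were at least 2-fold higher, as were 21.8% of all genes. On that scale 0 were at least 2-fold lower, against 11.8% of all genes.

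Kdm2b had 21.2 FPKM in CIH 3 and 6.57 FPKM in control 3 (log2 change 1.55, or 1.29 relative to all genes). Of its 8 entries, the largest in CIH 3 held 58.5% of the sum. Kdm5b had 41.5 FPKM in CIH 3 and 14.8 FPKM in control 3 (1.43, or 1.17 relative to all genes), and Kdm6a had 28.04 FPKM in CIH 3 and 12.7 FPKM in control 3 (1.08, or 0.82 relative to all genes). These were the genes past 2-fold by log2(FPKM + 1). Kdm6a fell short of it after scaling by the median of ratios (log2 change 0.66) or the upper quartile (0.91) and by largest entry (0.998). Kdm4c, with 14.0 FPKM in CIH 3 and 6.98 FPKM in control 3, and Kdm4a, with 30.5 FPKM in CIH 3 and 18.0 FPKM in control 3, lay 0.65 and 0.47 above the median of all genes. Kdm4c was 1.88-fold higher by log2(FPKM + 1), but just past 2-fold without the added 1.

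The 4 genes called in every one of those fits of replicates 1 and 2 had 4 of the 5 smallest log2 changes in this pair when entries were summed. Kdm3a had 33.9 FPKM in CIH 3 and 25.3 FPKM in control 3, and Kdm4b had 29.0 FPKM in CIH 3 and 22.2 FPKM in control 3, which put them 0.14 and 0.11 above the median of all genes. Tet2, with 15.9 FPKM in CIH 3 and 13.3 FPKM in control 3, and Kdm6b, with 28.9 FPKM in CIH 3 and 27.4 FPKM in control 3, lay at −0.03 and −0.19 relative to it. Tet2 depended on the summing: its largest entry alone was 11.7 FPKM in CIH 3 and 5.63 FPKM in control 3, a log2 change of 0.94 against 0.23 for the sum. Tet3, with 25.7 FPKM in CIH 3 and 24.4 FPKM in control 3, lay at −0.19. Across the 10 genes the changes in the 2 kinds of table had a Spearman rank correlation of 0.36, given as a description of genes that share libraries. By means, the share of the summed FPKM moved in the same direction in both kinds of table for 9 of the 10 genes, Tet3 being the exception. Among the 9, the shares of Kdm6b overlapped in replicates 1 and 2 (19.7% and 21.3% in CIH, 19.9% and 21.4% in control), so it had no clear direction there. The count was 6 when the largest entry of each gene stood in for the sum in the replicate 3 pair. Kdm3a was among those that turned, at 12.8% in CIH 3 and 11.1% in control 3 by largest entry, against 12.6% in CIH 3 and 14.7% in control 3 by sum.

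The change was more positive in the replicate 3 pair than in replicates 1 and 2 for 9 of the 10 genes by limma's interaction of group and kind of table (adjusted p from 0.000518 for Kdm5b to 0.0223 for Kdm6b), with Tet3 not called (adjusted p = 0.185). The test called 43.9% of all genes in that direction, and 26.2% after scaling by the median of ratios, when 7 of the 10 were called. Its spread comes from the gene tables alone, so it assumes that CIH 3 and control 3 vary no more than those. Genes called lower in replicates 1 and 2 yet higher in CIH 3 made up 11.1% of all tested genes, and 8 of the 10 were such genes. Of these 8, Tet2 and Kdm6b lay below the median of all genes in the replicate 3 pair, and after scaling by the median of ratios Kdm3a, Kdm4b, Kdm6b and Tet2 had negative changes there. In a limma fit of all 6 libraries that also held the kind of table as a term, 0 of the 10 were called.

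Several measures moved with these changes, and their part in them was not tested. All 9 tested adipocyte markers were at least 2-fold lower in CIH 3, by a median log2 change of −5.603, whereas in replicates 1 and 2 limma called 5 of the 9 as lower and 0 as higher, with a median of −0.35. Of the preadipocyte and fibroblast markers, 7 of 8 tested were at least 2-fold higher in CIH 3, and limma called 5 higher and 2 lower in replicates 1 and 2. All 9 proliferation genes rose in replicates 1 and 2, and in CIH 3 there were 8 of them past 2-fold higher. Mitochondrial-encoded genes took 22.4% of total FPKM in CIH 3 and 43.7% in control 3, against 15.5% and 16.3% in CIH 1 and 2 and 14.2% and 11.2% in control 1 and 2.

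Over all tested genes, the change also varied with gene length. The 10 genes have 4895 to 16870 bases of exon, and 7 of them fall in the longest of 4 equal length classes of tested genes (6877 bases or more) and 3 in the next. The median log2 change of the longest class was −0.09 for replicates 1 and 2 and 0.40 for the replicate 3 pair, and that of the shortest class 0.10 and 0.07. Limma called 24.5% of the longest class as lower in replicates 1 and 2 and 15.5% of the shortest. The part of length in the changes of the 10 genes was not tested.

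**Figure D4:**
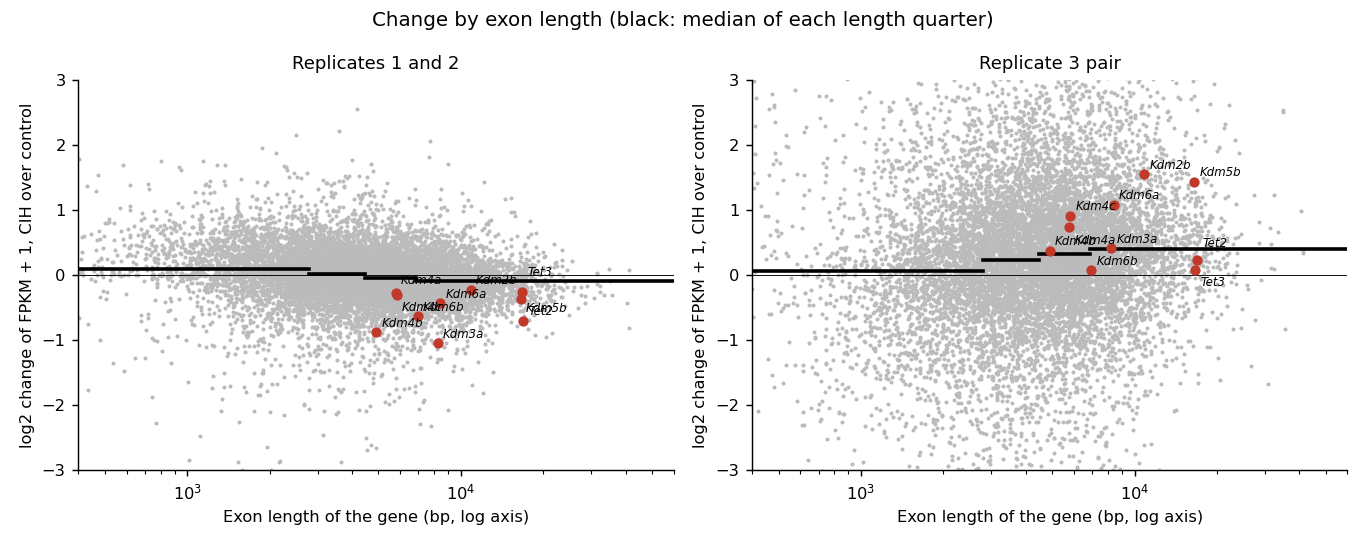
Log2 change of FPKM + 1, CIH over control, against exon length (log axis) for all tested genes (grey; changes beyond 3 in size and lengths outside the axis are not drawn) and the 10 demethylase genes (red), with the median of each length class in black. The medians slope down with length in replicates 1 and 2 (0.10 to −0.09) and up in the replicate 3 pair (0.07 to 0.40).

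Other demethylases of the same enzyme classes, a list of 16 genes of which 12 were tested, gave 6 lower and 2 higher calls by limma in replicates 1 and 2, with a median log2 change of −0.33. Kdm7a, which acts on dimethylated lysines 9 and 27 of histone H3, had 4.91 and 5.79 FPKM in CIH 1 and 2 and 17.8 and 14.8 FPKM in control 1 and 2 (log2 change −1.45, limma adjusted p = 0.00229). Kdm7a was 24.3 FPKM in CIH 3 and 49.4 FPKM in control 3, a log2 change of −0.996, or −1.26 relative to all genes. Of the 12, only Tet1 was at least 2-fold higher in CIH 3 by log2(FPKM + 1). Tet1 had 5.80 FPKM there and 0.486 FPKM in control 3 (log2 change 2.19). It passed the filter on low values only through CIH 3, so this value was not independent of the filter. On that scale 0 of the 12 were at least 2-fold lower. With 0.1 added to FPKM instead of 1, or after scaling by the median of ratios or the upper quartile, 1 was. Jmjd1c and Kdm3b, the relatives of Kdm3a, also fell (log2 change −0.70 and −0.59, limma adjusted p = 0.0114 and 0.00618). Kdm8, a Jumonji protein with a role in cell division, rose to 2.16 and 2.21 FPKM in CIH 1 and 2, against 0.943 and 0.778 FPKM in control 1 and 2 (log2 change 0.78, adjusted p = 0.00248). Of the flavin-dependent histone demethylases, which use oxygen by another chemistry, neither Kdm1a (log2 change −0.04, limma adjusted p = 0.708) nor Kdm1b (−0.23, adjusted p = 0.0887) was called. Among 5 dioxygenases of nucleic acids, Alkbh5, an eraser of N6-methyladenosine in RNA, had 26.0 and 29.0 FPKM in CIH 1 and 2 and 52.6 and 55.9 FPKM in control 1 and 2 (log2 change −0.96, limma adjusted p = 0.00237), Fto fell (−0.28, adjusted p = 0.0395) and Alkbh1 rose (0.28, adjusted p = 0.0354). The calls of Fto and Alkbh1 were lost when any 1 library was left out (largest adjusted p = 0.186 and 0.139), and that of Jmjd1c without CIH 1 (0.0668).

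**Figure D5:**
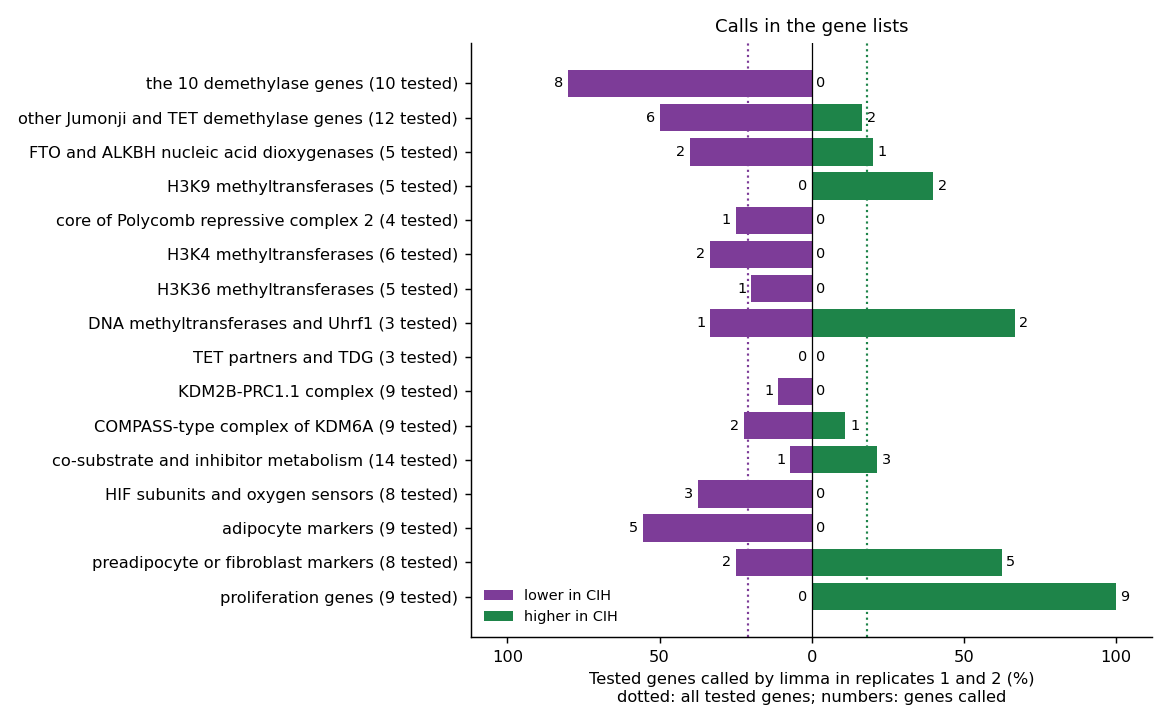
Share of tested genes in each list that limma called lower (left, purple) or higher (right, green) in CIH 1 and 2 than in control 1 and 2, with the number called at each bar and dotted lines at the shares over all tested genes (20.9% and 18.2%). The demethylase genes have 8 lower calls of 10 and the proliferation genes 9 higher calls of 9.

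The enzymes that write the same marks are read against the 39.1% of all tested genes that limma called. Of 5 tested methyltransferases for lysine 9 of histone H3, Suv39h1 (log2 change 0.59, limma adjusted p = 0.00657) and Setdb1 (0.38, adjusted p = 0.0195) rose and 0 fell. In the Polycomb core, Suz12 fell (−0.53, adjusted p = 0.0333) and the other 3 genes were not called. Of 6 methyltransferases for lysine 4, Setd1b (−0.62, adjusted p = 0.0052) and Kmt2c (−0.55, adjusted p = 0.025) fell, and of 5 for lysine 36, Setd2 fell (−0.38, adjusted p = 0.0395). Setdb1 and Setd2 lost their calls when any 1 of the 4 libraries was left out (largest adjusted p = 0.104 and 0.178), Suz12 without CIH 1, CIH 2 or control 1 (0.138) and Kmt2c without CIH 1 or control 1 (0.108). The DNA methylation genes went both ways. Uhrf1, which guides Dnmt1 to newly replicated DNA, had 6.01 and 6.78 FPKM in CIH 1 and 2 and 1.51 and 1.63 FPKM in control 1 and 2 (log2 change 1.53, limma adjusted p = 0.00104). Dnmt1, the maintenance enzyme, rose (0.63, adjusted p = 0.00722) and Dnmt3a, a de novo enzyme, fell (−0.71, adjusted p = 0.00875; 0.0522 without CIH 1). Uhrf1 and Dnmt1 were also at least 2-fold higher in CIH 3, as were 8 proliferation genes.

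Partners of the demethylases are read against the same 39.1% of all genes. In the complex of KDM2B, 1 of 9 genes, Rnf2, fell (log2 change −0.34, limma adjusted p = 0.0365) and 0 rose, although Rnf2 lost its call after upper-quartile scaling, when 1 other gene rose, with the replicate block, and without CIH 1, CIH 2 or control 1 (largest adjusted p = 0.17). In the complex of KDM6A, Kmt2c and Ncoa6 fell (−0.55 and −0.51, adjusted p = 0.025 and 0.0103), Ash2l rose (0.30, adjusted p = 0.0388) and 6 of 9 were not called. Among those 6, Pagr1a had 0 FPKM in CIH 1, CIH 2, control 1 and control 2 and could not have been called. Ash2l lost its call without any 1 library and Ncoa6 without CIH 1 (largest adjusted p = 0.187 and 0.0671). None of the 3 tested TET partners, Tdg, Ogt and Cxxc5, was called by limma, and the lowest unadjusted p among them was 0.0923.

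The co-substrate and inhibitors of these enzymes come from mitochondrial and cytosolic metabolism: isocitrate dehydrogenases make 2-oxoglutarate, while succinate, fumarate and 2-hydroxyglutarate inhibit. Of 14 such genes, 3 rose (Dlst, Idh3b and Sdhc, log2 changes 0.24, 0.34 and 0.29) and 1 fell (Idh2, −0.52, limma adjusted p = 0.00906) in replicates 1 and 2. These calls are read against the 39.1% of all tested genes that limma called. The 3 higher calls were each lost when any 1 library was left out (largest adjusted p of 0.159 to 0.182), and Idh2 was called in all 14 fits of these libraries. Scaling by total FPKM gave 0 higher and 2 lower calls, and scaling by the upper quartile 6 higher and 1 lower. In the replicate 3 pair, 12 of the 14 were at least 2-fold lower in CIH 3, where 11.8% of all tested genes were. After scaling by total FPKM 6 were. Idh2 was 2-fold higher, at 175 FPKM in CIH 3 and 85.9 FPKM in control 3, where 21.8% of all tested genes were. After scaling by the median of ratios or the upper quartile, 0 of the 14 were 2-fold higher.

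Among HIF subunits and oxygen sensors, 3 of 8 fell in replicates 1 and 2 and 0 rose, where limma called 20.9% of all tested genes lower and 18.2% higher. Egln3, a HIF prolyl hydroxylase and like Kdm3a a HIF target, had 30.8 and 30.2 FPKM in CIH 1 and 2 and 126.2 and 124.2 FPKM in control 1 and 2 (log2 change −2.00, limma adjusted p = 0.000392). Egln1 and Vhl fell too (−1.77 and −1.37, adjusted p = 0.000582 and 0.000837), while Hif1a was not called (0.36, adjusted p = 0.0903). Vegfa, another HIF target, fell (−1.34, adjusted p = 0.00132). In the replicate 3 pair Egln3, Vegfa and Egln1 were again lower in CIH 3 (−2.31, −1.43 and −0.81), while Vhl and Kdm3a were at 0.385 and 0.41. Relative to the median of all genes, Egln3, Vegfa and Egln1 lay at −2.57, −1.69 and −1.07, and Vhl and Kdm3a at 0.12 and 0.14. The change of Kdm3a turned slightly negative after scaling by the median of ratios.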

How the data were processed

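RNA was measured by sequencing of directional libraries from 3 CIH and 3 control samples. The authors deposited FPKM values, a unit read from the values themselves since the file headers give sample names alone. GRCm38, featureCounts 1.5.0-p3 and DESeq 1.8.3 are listed, with no role, per the submitters' processing notes, while no aligner is named in the sources used here. Symbols, positions and exon lengths came from GENCODE mouse release 21 (GRCm38). Repeated IDs in CIH 3 and control 3 were summed. The 10976 genes averaging 1 FPKM or more across all 6 libraries were tested on log2(FPKM + 1) with limma 3.58.1 in R 4.3.3 (empirical Bayes with trend) and Benjamini-Hochberg adjustment at 0.05, which was tested on simulated data. Steps in the low values put the depth of the 4 gene-table libraries at about 25700000 to 28000000 fragments, with 98.4% to 98.6% of values under 50 fragments whole within 0.05 (10% by chance); the depth of CIH 3 and control 3 is unknown. The genes named are the 10 demethylase genes and members of the lists. The 10 genes and all lists were chosen with earlier results of these data known. Alternatives changed the pseudocount, filter, scaling, entry summing, replicate block, limma trend and the libraries included.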

Additional observations from a re-analysis of the deposited data

Results flagged for a closer look

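For 9 of the 10 demethylase genes, limma's test of the difference between the change in the replicate 3 pair and the change in replicates 1 and 2 passed an adjusted p of 0.05. The change in the replicate 3 pair was higher by 1.804 on the log2 scale for Kdm5b, 1.78 for Kdm2b, 1.51 for Kdm6a and 1.45 for Kdm3a. It was higher by 1.25 for Kdm4b, 1.22 for Kdm4c and 1.01 for Kdm4a. The smallest such differences were 0.94 for Tet2 and 0.71 for Kdm6b. Over all tested genes 43.9% were called in this direction, and 1 library per group stands behind the replicate 3 pair.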

How the results depend on the processing

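In replicates 1 and 2 the planned test called 4292 genes and 8 of the 10 demethylase genes as lower. Leaving out 1 library gave 1865 to 3682 genes (1865 without CIH 1, 2316 without CIH 2) and 4 to 6 of the 10. No label says what the replicate numbers share, and in these 4 libraries same-numbered samples deviated with r = −0.18. With the replicate block, 3332 genes and 5 of the 10 were called (limma adjusted p = 0.0696 for Kdm4a, 0.0723 for Kdm4c and 0.057 for Kdm5b), and with the crossed pairing, chosen after seeing the data, 4510 genes and 8 of the 10. Kdm4a lost its call after upper-quartile scaling (adjusted p = 0.058) and Kdm4c without the filter (adjusted p = 0.0535). All 6 libraries together gave 63 genes when the kind of table was a term and 0 when it was not, and 0 of the 10 in both; the changes of Kdm2b (0.36), Kdm4a (0.06), Kdm4c (0.10), Kdm5b (0.23) and Kdm6a (0.072) then turned positive. The cause was not tested.

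In the replicate 3 pair 2398 genes were at least 2-fold higher and 1292 lower, against 1556 and 2017 after scaling by the median of ratios and 4642 and 671 by total FPKM, where 6 of the 10 passed 2-fold instead of 3; by the median of ratios, the upper quartile or largest entry 2 did. By the median of ratios 5 of the 10 were higher, and Kdm3a (−0.019), Kdm4b (−0.05), Kdm6b (−0.35), Tet2 (−0.18) and Tet3 (−0.35) turned negative, as did Kdm6b (−0.10) and Tet3 (−0.10) by the upper quartile, Tet3 by largest entry (−0.01) and the difference between the kinds of table for Tet3 by the median of ratios (−0.10). The cause was not tested.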
